A study of Homo sapiens with 6 samples.

Results

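Hyaluronan is a long, unsulphated sugar polymer of the extracellular matrix. The enzymes HAS1, HAS2 and HAS3 make it at the plasma membrane from UDP-glucuronic acid and UDP-N-acetylglucosamine, and the growing chain is extruded from the cell. CD44 is its main cell-surface receptor, and TNFAIP6 (TSG-6) transfers heavy chains onto it in inflamed matrix. HYAL1 (lysosomal) and HYAL2 (membrane-anchored) are hyaluronidases, HYAL3 is their close relative, and CEMIP and CEMIP2 take part in the breakdown of extracellular hyaluronan. Osteosarcoma and other mesenchymal tumour cells are known to surround themselves with hyaluronan coats. These 10 genes were examined among 58051 gene rows of a raw count table. HAS2 was chosen by its strong rise in the siSURF2 counts of the comparison below, so its difference between the groups is given as a description, without a test. The other 9 were listed for their roles, with earlier results of these data known.

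RNA was sequenced from polyA libraries of U2OS cells, a human osteosarcoma line. In 3 libraries the cells had received a scrambled siRNA (siSCR) and in 3 an siRNA against SURF2 (siSURF2), in 2 transfections 49 h apart, with RNA taken at 96 h. The series title places SURF2 in the nucleolar stress response as an antagonist of MDM2. The comparison of siSURF2 with siSCR addressed which mRNAs differed when SURF2 was lowered. No untransfected cells, no second siRNA and no second cell line are among the samples, and nothing in the labels says whether replicates were separate cultures. The p-values therefore reflect only library-to-library variation, part or all of which may be technical.

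Gene counts per library ran from 17123333 to 19688089, so 1 count equalled at most 0.0595 CPM (counts scaled to library size with TMM factors). SURF2, the siRNA target, was at 36.2, 35.8 and 32.3 CPM in siSCR replicates 1 to 3 and at 3.74, 3.56 and 3.20 CPM in siSURF2 replicates 1 to 3, lower in every siSURF2 library than in any control. Of 8 mesenchymal and osteosarcoma markers, 5 passed the filter on low counts. TWIST1 had no count in any library, SP7 had at most 1 and COL1A2 at most 3 counts in any library. The 8 summed to 3144 to 3199 CPM in siSCR and 3470 to 3822 CPM in siSURF2. Most of this was VIM (means of 1964 and 2014 CPM) and SPARC (1019 and 1408 CPM). COL1A1, SPARC and PRRX1 rose, and RUNX2 and VIM did not pass. The 4 blood markers summed to 0.476 CPM or less in every library. The 4 epithelial markers summed to 8.63 to 8.93 CPM in siSCR and 9.45 to 10.5 CPM in siSURF2, and the 3 endothelial markers to 4.40 to 5.39 and 3.20 to 4.25 CPM. Of 3 epithelial markers tested, EPCAM rose, CDH1 fell and KRT5 did not pass, and of 2 endothelial markers tested, PECAM1 fell and VWF did not pass. In siSURF2, CDH1 was at 0.495, 0.207 and 0.750 CPM and PECAM1 at 0.605, 0.516 and 0.850 CPM, not always at the level of the filter, 0.524 CPM. Both thus passed the filter through siSCR, the group where they were high. The part of all these markers in the results below was not tested. Of 17561 genes tested, 52.0% passed an adjusted p of 0.05 in edgeR's quasi-likelihood test (25.8% higher and 26.2% lower in siSURF2), and the CPM values of the groups did not overlap in 57.3%. These shares are the background for each count below. With library sizes taken from the ERCC spike-ins, synthetic RNAs added to each sample, 802 genes were called higher and 825 lower over the whole table. The calls that this ended are given beside each group. Among the markers above, ERCC library sizes ended the calls of COL1A1 and SPARC, while those of PRRX1, EPCAM, CDH1 and PECAM1 held.

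Of the 10 genes, 8 passed the filter on low counts. HAS2 was high in siSURF2 by its choice. Of the other 7, HYAL2 and CEMIP passed the test upwards, CEMIP2 downwards, and HAS3, CD44, HYAL1 and HYAL3 did not pass. HAS2 passed the filter only through its siSURF2 libraries, and CEMIP reached the level of the filter in all 3 siSURF2 libraries but not in siSCR replicate 1, so the count of 2 higher and 1 lower supports nothing about the family. The groups did not overlap in HAS2, HYAL2, CEMIP and CEMIP2. HAS1 and TNFAIP6 had too few counts for a test. In bulk RNA, a change in the number of expressing cells and a change in RNA per cell cannot be told apart.

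Promoter sequence was available for 9 of the 10 genes (RefSeq, GRCh38.p14). HAS2 was the one without an entry. The 250 bases upstream of the RefSeq start were searched on both strands for 5 motifs. They were TATAAA of the core promoter, TGANTCA of AP-1 factors, the cyclic AMP response element TGACGTCA, GGAATG of TEAD factors and GGGCGG of SP1. No match of one motif overlapped a match of another in the stretches below, which come from the 3 genes besides HAS2 that passed the threshold. Capitals mark the matches. The HYAL2 stretch (chr3:50322766-50322795, minus strand) holds a TEAD match. The CEMIP2 stretch (chr9:71768705-71768734, minus strand) holds an SP1 match in reverse. The CEMIP window (chr15:80779120-80779369, plus strand) holds TATAAA 30 bases before the RefSeq start and 3 SP1 matches. By GENCODE positions, the HYAL2 and CEMIP2 stretches lie inside their genes, whose upstream ends are at 50322906 and 71816690. The CEMIP window runs past the GENCODE gene start, 80779343, and its TATAAA spans that base. These stretches are thus placed by the RefSeq start only.
HYAL2: agcggatgggagGGAATGgggtttatcaag
CEMIP2: ctcaggcccgcgCCGCCCgggccacgattc
CEMIP: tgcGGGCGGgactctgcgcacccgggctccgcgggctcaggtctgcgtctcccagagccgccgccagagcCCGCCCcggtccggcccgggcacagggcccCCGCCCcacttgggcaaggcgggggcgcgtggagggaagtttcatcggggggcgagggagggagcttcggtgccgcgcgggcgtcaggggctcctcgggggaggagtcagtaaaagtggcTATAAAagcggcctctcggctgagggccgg
Among all 35116 RefSeq windows of this length, 10.7% held TATAAA, 11.9% GGAATG, 42.6% GGGCGG, 6.57% TGANTCA and 1.65% TGACGTCA. CEMIP was the only one of the 9 genes with TATAAA, HYAL2 and HYAL3 (in 1 of its 2 windows) held GGAATG, and 7 of the 9 held GGGCGG. TNFAIP6 held TGANTCA and HAS1 held TGACGTCA, both being genes with almost no counts here. A match describes letters in a window and says nothing of whether a factor binds.

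HAS2 (ENSG00000170961, chromosome 8, 121612116 to 121641390, GRCh38, minus strand) makes long hyaluronan chains and is the main synthase of many mesenchymal cells. It had 3, 4 and 9 counts in siSCR replicates 1 to 3 and 86, 77 and 103 counts in siSURF2 replicates 1 to 3. These counts correspond to 0.179, 0.214 and 0.462 CPM against 4.73, 3.98 and 5.15 CPM. Every siSURF2 library was far above every siSCR library, and siSCR replicate 3 was the highest of the controls. The means were 0.285 ± 0.155 and 4.62 ± 0.594 CPM (SD, n = 3 each), a 16.2-fold higher level and a log2 fold change of 3.96 ± 0.30 (SE). From the summed counts, 16 against 266, the ratio was 15.9 with an exact 95% interval of 9.60 to 28.2, which covers counting error only. The size of the fold rests on few control reads: without siSCR replicate 3 it was 23.5, and the log2 fold change was 4.50.

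HAS2-AS1, an antisense long noncoding RNA known to regulate HAS2, starts inside the HAS2 gene on the opposite strand, and 201 exonic bases (4.80% of the HAS2 exons) lie in both. It had 3, 1 and 3 counts in siSCR and 15, 12 and 12 counts in siSURF2 replicates 1 to 3. The summed counts were 7 and 39, a ratio of 5.32 (exact 95% interval 2.35 to 14.1). Its siSURF2 libraries were thus also all above its siSCR libraries. Like HAS2, it passed the filter only through its siSURF2 libraries, being at 0.179 CPM or less in siSCR, so this adds no support. No source used here gives the strand setting of the counting, so reads from the shared bases cannot be assigned to one strand.

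HAS3 did not pass the test, and HAS1 had too few counts for one. HAS3 (ENSG00000103044, chromosome 16, 69105564 to 69118719), which makes shorter chains, was at 2.02, 2.57 and 2.67 CPM in siSCR and at 2.70, 1.55 and 2.20 CPM in siSURF2 replicates 1 to 3. The groups overlapped, and the log2 fold change was -0.18 ± 0.23 (SE, edgeR adjusted p = 0.53). From summed counts of 134 and 123, the ratio was 0.877 (exact 95% interval 0.681 to 1.13). HAS3 shares 365 exonic bases with CHTF8, a replication clamp loader factor on the opposite strand, which was far more abundant and fell from 183.5 ± 2.17 to 140.7 ± 2.98 CPM (adjusted p = 1.3e-07), a call that ended with ERCC library sizes. The part of HAS3 reads that comes from CHTF8 was not tested. HAS1 (ENSG00000105509, chromosome 19, 51713112 to 51723994) had 2, 3 and 4 counts in siSCR and 0, 4 and 2 counts in siSURF2, a ratio of 0.637 with an interval of 0.187 to 2.00. No difference in HAS1 was detectable at this depth.

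Scaled by exon length, the leading synthase mRNA differed between the groups. In siSCR, HAS3 was at 0.458 ± 0.0657 CPM per kb of exon, above HAS1 (0.0721 ± 0.0193) and HAS2 (0.0680 ± 0.0369), whose ranges overlapped. In siSURF2, HAS2 was at 1.10 ± 0.142 CPM per kb, above HAS3 at 0.406 ± 0.109. HAS2 made up 8.91%, 8.40% and 15.6% of the summed synthase level in siSCR replicates 1 to 3 and 68.9%, 71.1% and 72.7% in siSURF2 replicates 1 to 3. The summed level of the 3 synthases was 0.598 ± 0.115 CPM per kb in siSCR and 1.55 ± 0.192 CPM per kb in siSURF2. As HAS2 was chosen for its rise, these shares carry no test. The synthase levels were below those of CD44, HYAL2, HYAL3 and CEMIP2 in both groups.

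**Figure D1:**
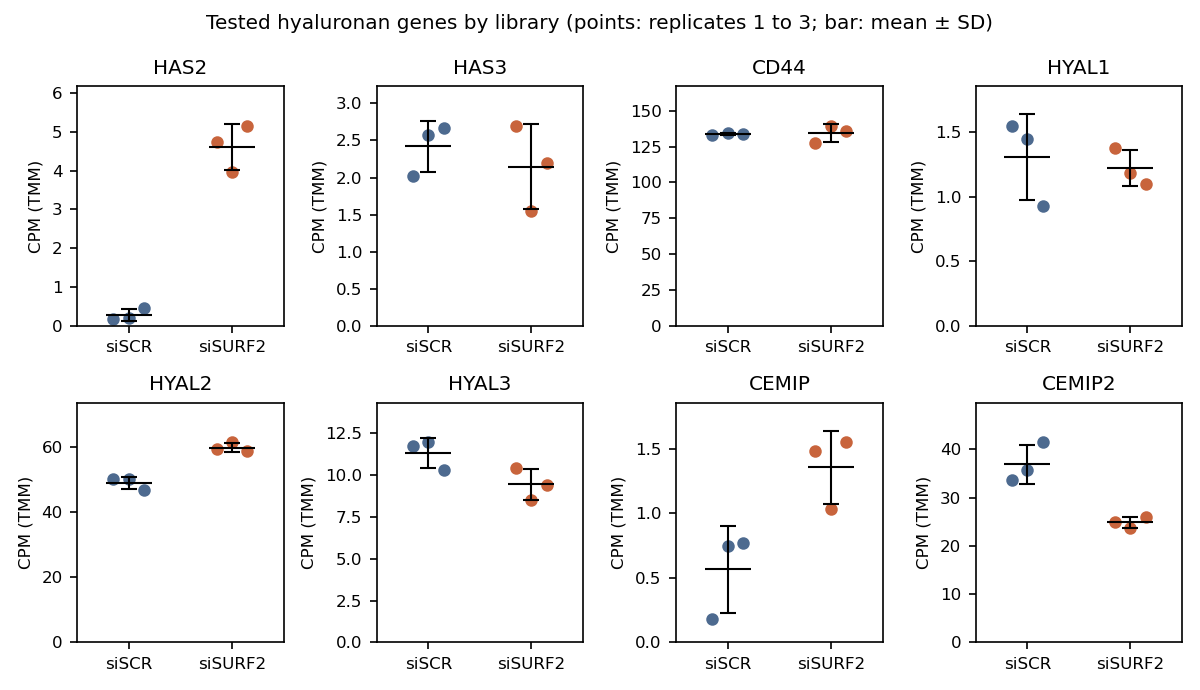
TMM-scaled CPM (vertical axes, each from 0) of the 8 tested hyaluronan genes in the 3 siSCR and 3 siSURF2 libraries; points are libraries and bars the mean ± SD. HAS2 lies between 0.179 and 0.462 CPM in siSCR and between 3.98 and 5.15 CPM in siSURF2, while the HAS3, CD44, HYAL1 and HYAL3 groups overlap.

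CD44 (ENSG00000026508, chromosome 11, 35138870 to 35232402), the main hyaluronan receptor, was at 132.7, 134.1 and 134.0 CPM in siSCR and at 127.2, 139.3 and 136.0 CPM in siSURF2 replicates 1 to 3. Both groups had nearly the same mean, 133.6 ± 0.822 and 134.2 ± 6.25 CPM, and they overlapped. The log2 fold change was 0.01 ± 0.05 (SE, edgeR adjusted p = 0.93), and the ratio of summed counts was 1.00 with an exact 95% interval of 0.973 to 1.04. Counts per gene do not separate the standard form of CD44 from its variant-exon forms. TNFAIP6 (ENSG00000123610, chromosome 2, 151357592 to 151380048) had 1 count in siSCR replicate 2 and none in the other libraries. The 0 counts in siSURF2 allow a mean level of up to 0.0521 CPM, the limit of 3 counts over the group.

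HYAL2 (ENSG00000068001, chromosome 3, 50317790 to 50322906) cuts long hyaluronan at the cell surface and was the most abundant of the degrading enzymes by length-scaled level. It was at 50.3, 50.1 and 47.0 CPM in siSCR and at 59.5, 61.4 and 58.7 CPM in siSURF2 replicates 1 to 3. All siSURF2 libraries were above all siSCR libraries, and the mean rose from 49.1 ± 1.85 to 59.9 ± 1.40 CPM, 1.22-fold. The log2 fold change was 0.29 ± 0.06 (SE, edgeR adjusted p = 0.00015). HYAL1 (ENSG00000114378, chromosome 3, 50299889 to 50312381), the lysosomal enzyme, had 26, 27 and 18 counts in siSCR and 25, 23 and 22 counts in siSURF2. Its level was low and the groups overlapped, with a log2 fold change of -0.09 ± 0.30 (adjusted p = 0.82) and an interval of the ratio from 0.667 to 1.33. HYAL3 (ENSG00000186792, chromosome 3, 50292831 to 50299468) was at 11.7, 11.9 and 10.3 CPM in siSCR and at 10.4, 8.52 and 9.40 CPM in siSURF2. The groups overlapped slightly, and the log2 fold change of -0.26 ± 0.11 had an adjusted p of 0.053. It was below the threshold on leaving out siSCR replicate 3 (adjusted p = 0.024) or siSURF2 replicate 1 (0.047), within 0.024 to 0.69 over all settings.

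HYAL1, HYAL2 and HYAL3 lie side by side on the minus strand of chromosome 3, with genes that share exons with them. NAA80, an actin N-terminal acetyltransferase inside HYAL3, shares 248 bases (12.2% of the HYAL3 exons) and fell from 10.0 ± 1.43 to 7.31 ± 0.521 CPM (log2 fold change -0.45 ± 0.13, edgeR adjusted p = 0.0035). Same-strand reads in those bases cannot be split between HYAL3 and NAA80. TUSC2 shares 509 bases (11.2% of the HYAL2 exons), whose same-strand reads likewise cannot be split between HYAL2 and TUSC2. TUSC2 had a log2 fold change of -0.13 ± 0.06 (adjusted p = 0.090, and 0.021 without siSCR replicate 3, within 0.021 to 0.82 over all settings). IFRD2, which shares 43 bases with HYAL3, had -0.10 ± 0.06 (adjusted p = 0.15). It passed without siSCR replicate 3 (0.017) or without siSURF2 replicate 2 (0.025), within 0.017 to 0.85. Just outside the cluster, RASSF1, a tumour suppressor, had -0.12 ± 0.08 (adjusted p = 0.21) and SEMA3B, a secreted semaphorin, rose from 11.8 ± 1.85 to 19.8 ± 1.88 CPM (0.75 ± 0.10, adjusted p = 8.0e-07). HYAL2 and SEMA3B were thus the genes of this stretch that passed upwards, and NAA80 the one that passed downwards. With ERCC library sizes none of these 3 calls held (adjusted p = 0.70, 0.10 and 0.41, the highest over all settings).

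CEMIP (ENSG00000103888, chromosome 15, 80779343 to 80951776), also called KIAA1199 or HYBID, is needed for hyaluronan breakdown in fibroblasts. It had 3, 14 and 15 counts in siSCR and 27, 20 and 31 counts in siSURF2 replicates 1 to 3, or 0.179, 0.749 and 0.770 CPM against 1.48, 1.03 and 1.55 CPM. The groups did not overlap, and siSCR replicate 1 stood well below the other controls. The mean was 0.566 ± 0.336 CPM in siSCR and 1.36 ± 0.282 CPM in siSURF2, and the log2 difference was 1.22 ± 0.38 (SE, adjusted p = 0.0078 by edgeR). The call rested on that control: without siSCR replicate 1 the log2 fold change was 0.82, the fold of the means 1.79 in place of 2.40, and the adjusted p 0.069, within 0.0036 to 0.10 over all settings. MESD, a chaperone for LDL receptor family proteins on the opposite strand, shares 224 exonic bases with CEMIP and was far more abundant. It fell from 48.6 ± 0.838 to 23.8 ± 1.01 CPM. The part of CEMIP reads that comes from MESD was not tested.

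CEMIP2 (ENSG00000135048, chromosome 9, 71683366 to 71816690), a transmembrane relative of CEMIP formerly named TMEM2, was at 33.7, 35.7 and 41.4 CPM in siSCR and at 24.9, 23.8 and 25.9 CPM in siSURF2 replicates 1 to 3. All siSURF2 libraries were below all siSCR libraries. The mean fell from 36.9 ± 4.02 to 24.9 ± 1.07 CPM, 1.48-fold, and the log2 difference was -0.57 ± 0.08 (SE, adjusted p = 4.0e-07 by edgeR). The related pair CEMIP and CEMIP2 thus had opposite signs, CEMIP at no more than 1.55 CPM in any library and CEMIP2 at no less than 23.8 CPM.

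On the length-scaled scale, HYAL2 was 3.16, 2.97 and 2.40 times the level of CEMIP2 in siSCR replicates 1 to 3 and 5.05, 5.47 and 4.79 times in siSURF2 replicates 1 to 3. The ratio was higher in every siSURF2 library, with means of 2.84 ± 0.396 and 5.11 ± 0.339. This follows from the values of both genes, whose groups did not overlap and went opposite ways, and adds no support of its own. The summed level of the 5 degrading genes was nearly the same, 20.7 ± 0.552 CPM per kb in siSCR and 21.0 ± 0.390 CPM per kb in siSURF2. In siSCR the order from the top was CD44 (13.4 ± 0.0822 CPM per kb), HYAL2 (10.8 ± 0.407), HYAL3 (5.57 ± 0.446) and CEMIP2 (3.84 ± 0.418). HAS3 and HYAL1 followed with overlapping ranges, then CEMIP, HAS1 and HAS2, each overlapping its neighbour, and TNFAIP6. In siSURF2 the ranges of CD44 (13.4 ± 0.625) and HYAL2 (13.2 ± 0.309) overlapped, and HAS2 moved up to the place behind CEMIP2. With the longest transcript as the length, CD44 was at 23.4 ± 1.09 and HYAL2 at 14.8 ± 0.346 CPM per kb in siSURF2, without overlap, and the siSCR ranges of HYAL3 and CEMIP2 overlapped (5.29 to 6.14 and 5.16 to 6.35).

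**Figure D2:**
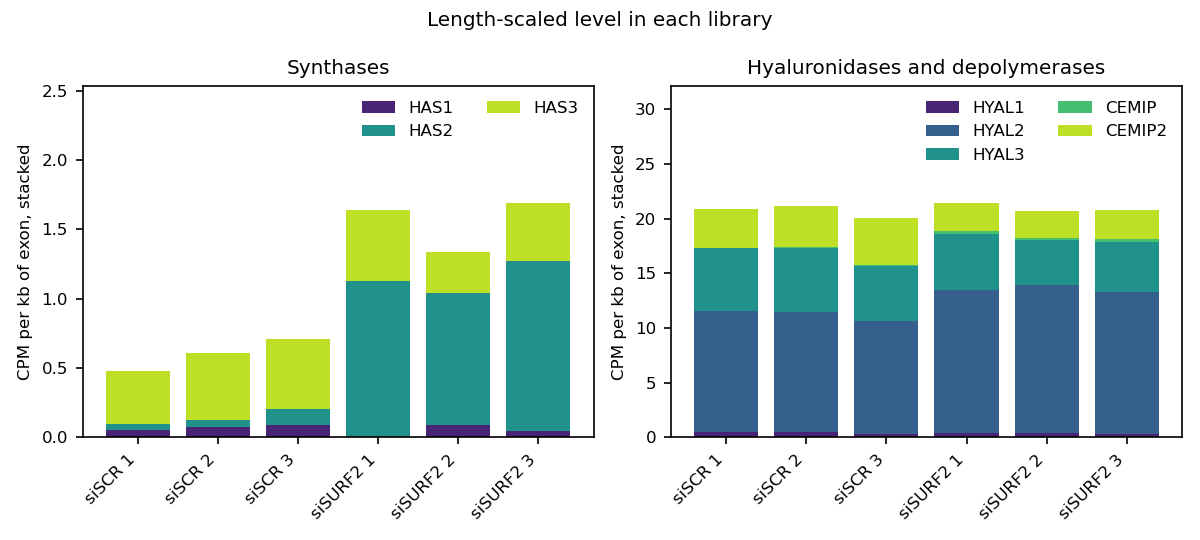
Length-scaled level (CPM per kb of exon, stacked, vertical axis from 0) of the 3 synthases (left) and the 5 degrading genes (right) in each of the 6 libraries. HAS2 is 8.40% to 15.6% of the synthase bar in siSCR and 68.9% to 72.7% in siSURF2, while the bars of the degrading genes differ little in height.

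Of 14 listed genes of the hexosamine and UDP-sugar pathway, all tested, 10 fell, 2 rose and 2 did not pass, with a median log2 fold change of -0.24 against 0.00 over all genes tested. Over all genes tested, 26.2% fell and 25.8% rose. UGP2, which makes UDP-glucose, fell from 183.3 ± 5.64 to 118.1 ± 1.11 CPM (-0.63 ± 0.05, edgeR adjusted p = 1.3e-11). UAP1, which makes UDP-N-acetylglucosamine, fell from 86.1 ± 4.10 to 58.5 ± 2.15 CPM (adjusted p = 3.1e-09), and GNPNAT1, the acetyltransferase of the pathway, fell by 0.42 ± 0.05 on the log2 scale. The members that rose were both forms of the entry enzyme of the hexosamine pathway. GFPT2 was at 9.82, 9.57 and 9.09 CPM in siSCR and at 20.5, 20.9 and 18.6 CPM in siSURF2 replicates 1 to 3 (1.07 ± 0.09, adjusted p = 1.6e-10), and every siSURF2 library was above every control. The more abundant GFPT1 rose from 100.2 ± 2.47 to 122.7 ± 4.34 CPM (0.29 ± 0.05). With ERCC library sizes the list had 1 gene higher, GFPT2, and 0 lower in edgeR (1 and 2 at an unadjusted p under 0.05), so the calls of UGP2, UAP1, GNPNAT1 and GFPT1 ended, with a list median of -0.28.

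Proteins that bind hyaluronan in the matrix went both ways. Of 15 listed, 8 were tested, 3 rose and 2 fell, with a median of 0.17, beside 25.8% and 26.2% of all genes tested. HAPLN4 had no count, and versican (VCAN) and the inter-alpha-inhibitor chains ITIH1 to ITIH4 were at 0.257 CPM or less in every library. PTX3, a pentraxin that helps to build hyaluronan matrix, was at 14.9, 17.4 and 14.4 CPM in siSCR and at 6.82, 7.54 and 8.80 CPM in siSURF2 (-1.01 ± 0.11, edgeR adjusted p = 1.9e-08). ITIH5 rose from 2.05 ± 0.597 to 5.30 ± 0.517 CPM (1.38 ± 0.20, adjusted p = 8.5e-07). ITIH5 and PTX3 were the genes of this list that also passed with ERCC library sizes. The link protein HAPLN1 rose by 0.64 ± 0.18 (adjusted p = 0.0087, and 0.073 without siSCR replicate 1, within 6.9e-09 to 0.29). The hyalectan BCAN rose by 0.29 ± 0.11 (adjusted p = 0.037), and its adjusted p was 0.093, 0.17, 0.069 and 0.13 without siSCR replicate 1, siSCR replicate 3, siSURF2 replicate 1 and siSURF2 replicate 3, within 0.018 to 0.71. NCAN, at 0.855 CPM in siSCR, reached the level of the filter in all 3 siSCR libraries but in 1 of 3 siSURF2 libraries, so it passed the filter through the group where it was high and adds no support to the count of 2. It fell by 0.97 ± 0.40 (adjusted p = 0.040), which was lost in 10 of 16 settings, within 0.033 to 0.29: its adjusted p was 0.074, 0.11 and 0.072 without siSCR replicates 1, 2 and 3, and 0.093 and 0.14 without siSURF2 replicates 1 and 2.

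Of 7 other hyaluronan receptors, 3 were tested. LAYN (layilin) fell from 105.7 ± 2.28 to 62.7 ± 1.86 CPM (log2 fold change -0.75 ± 0.05, edgeR adjusted p = 2.0e-12) and HMMR, which also serves the mitotic spindle, fell from 167.3 ± 6.43 to 129.2 ± 10.6 CPM (-0.37 ± 0.06). TLR4 rose from 23.2 ± 1.66 to 28.2 ± 1.43 CPM (0.28 ± 0.08, adjusted p = 0.0030). With ERCC library sizes the LAYN call held, and those of HMMR and TLR4 ended. LYVE1 and TLR2 had no count in any library. Of 5 other degrading enzymes, 3 were tested, and the lysosomal exoglycosidases HEXA and GUSB each rose by 0.16 ± 0.06 (adjusted p = 0.021 and 0.024). The HEXA call was lost without siSCR replicate 1 (0.13) or siSURF2 replicate 3 (0.098), within 0.0032 to 0.88, and the GUSB call without siSCR replicate 1 (0.13) or siSURF2 replicate 2 (0.079), within 0.0041 to 0.88. Both ended with ERCC library sizes.

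CD44 itself did not pass the test. Of 13 listed partners, splicing factors and sheddases, 9 were tested, 4 rose and 3 fell, with a median of 0.13. Of all genes tested, 25.8% rose and 26.2% fell, so this small count adds no support about CD44 partners. MMP9, a protease that docks on CD44, was at 23.4, 24.0 and 25.6 CPM in siSCR and at 5.22, 6.14 and 6.40 CPM in siSURF2 (-2.04 ± 0.10, edgeR adjusted p = 1.2e-15). NF2 (merlin), which binds the CD44 tail, fell from 165.1 ± 11.9 to 83.7 ± 2.87 CPM (-0.98 ± 0.06). Of the proteins that link CD44 to actin, ezrin (EZR) fell by 0.52 ± 0.05 and moesin (MSN) rose by 0.44 ± 0.05, while radixin (RDX) had -0.08 ± 0.05 (adjusted p = 0.20). MMP14, which sheds CD44, rose by 0.52 ± 0.07, and SPP1 (osteopontin), a CD44 ligand, rose from 6.51 ± 1.21 to 20.6 ± 5.01 CPM (1.67 ± 0.19, adjusted p = 1.9e-05). With ERCC library sizes SPP1, MMP9 and NF2 passed, and the calls of EZR, MSN and MMP14 ended. The epithelial splicing factors ESRP1 and ESRP2 were both under 1 CPM and were not tested.

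Of 8 transcription factors known to act at the HAS2 promoter, 4 fell and 4 did not pass, with a median of -0.14. Over all genes tested, 26.2% fell and 25.8% rose. STAT3 fell by 0.28 ± 0.05, RARA by 0.32 ± 0.06 and NFKB1 by 0.26 ± 0.05 on the log2 scale (edgeR adjusted p = 3.6e-05, 4.8e-05 and 0.00019). With ERCC library sizes 0 of the 8 passed in edgeR in either direction, and 0 had an unadjusted p under 0.05. Of 19 growth factors and cytokines known to raise HAS2, 14 were tested, 7 rose and 3 fell, with a median of 0.09. The same shares of all genes tested are the background for this count. EREG (epiregulin), a ligand of the EGF receptor, was at 1.31, 1.23 and 1.59 CPM in siSCR and at 11.4, 10.2 and 14.8 CPM in siSURF2 (3.13 ± 0.18), and AREG rose from 3.15 ± 0.575 to 8.24 ± 1.45 CPM (1.39 ± 0.17). PDGFD rose by 1.25 ± 0.28. HBEGF, another ligand of that receptor, went the other way, from 20.9 ± 2.53 to 5.77 ± 0.967 CPM (-1.86 ± 0.12), FGF2 fell by 0.73 ± 0.06 and TGFB1 by 0.20 ± 0.05. With ERCC library sizes AREG, EREG, FGF2 and HBEGF were the genes of this list that passed, and the calls of PDGFD and TGFB1 ended. IL1A, IL1B, IL6, OSM and TNF were at 0.568 CPM or less in every library.

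**Figure D3:**
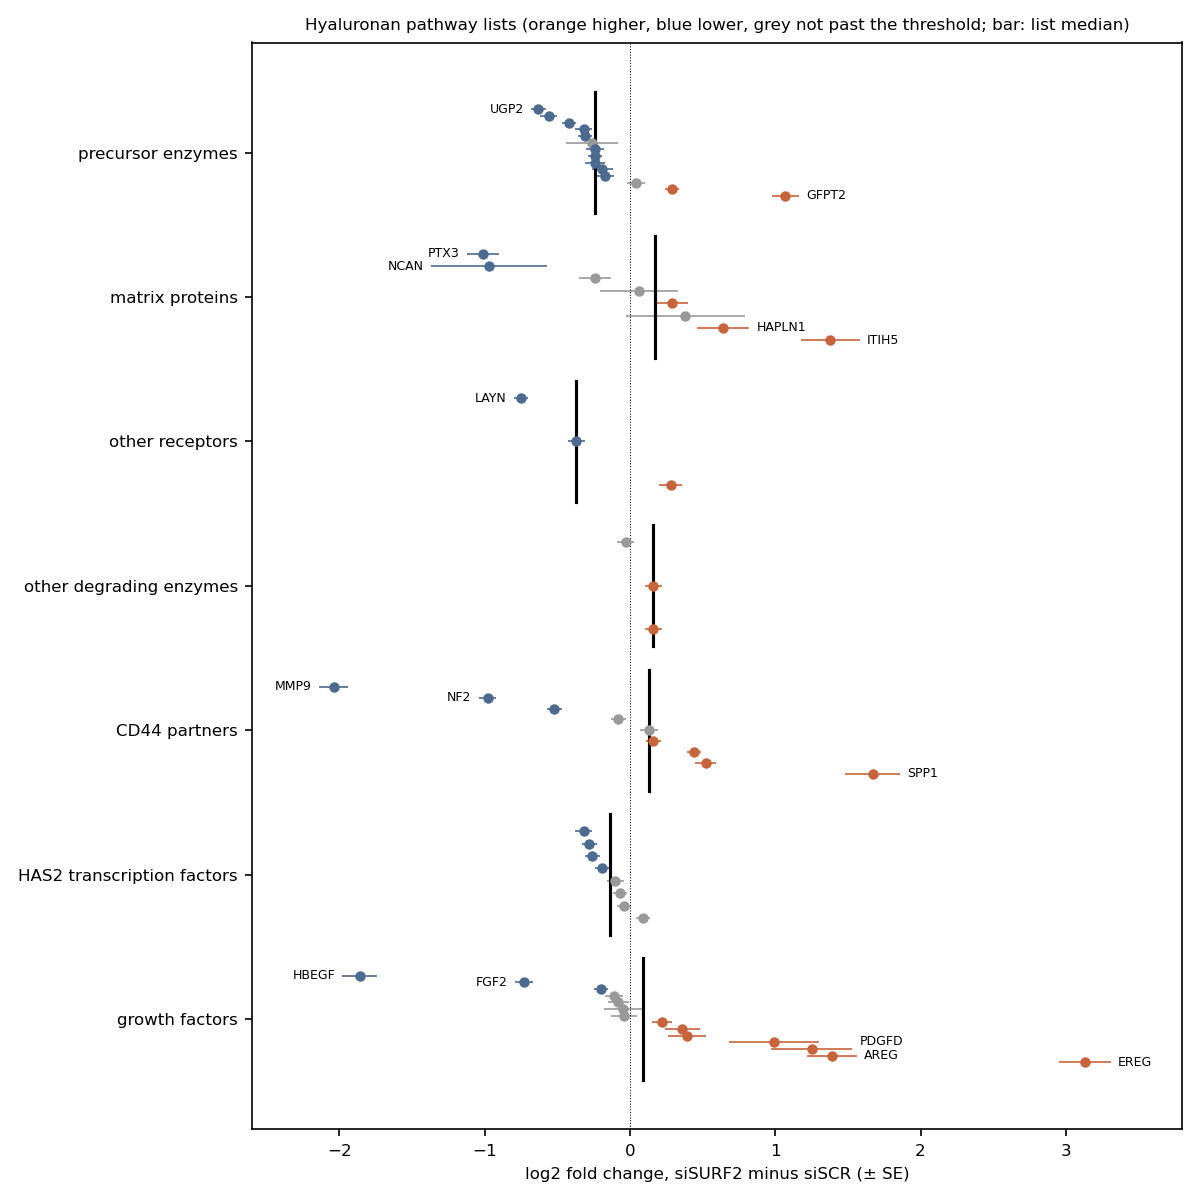
Log2 fold change of siSURF2 minus siSCR with its SE (horizontal axis) for each tested gene of the 7 hyaluronan pathway lists; orange points passed the threshold upwards, blue downwards, grey not, and the black bar is the list median. Most points of the hexosamine and UDP-sugar list (axis label precursor enzymes, which also holds OGT, OGA and AMDHD2) lie below 0 with GFPT2 at 1.07. EREG (3.13) and MMP9 (-2.04) are the farthest points.

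The genes whose profile was most like that of HAS2 were RCAN2, PELATON, ONECUT3, PTPN22 and EREG. Likeness was the Euclidean distance over the 6 libraries between log2 CPM profiles, each centred on its own siSCR mean, among tested genes whose log2 CPM averaged 0 or more. The distances were 0.90, 1.03, 1.05, 1.12 and 1.21 in that order. EREG, the least like HAS2 of these 5, was also among the listed growth factors. Its place here rests on the same rise given above and adds no support. RCAN2, a regulator of calcineurin, had 19, 16 and 29 counts in siSCR and 227, 253 and 216 counts in siSURF2. PTPN22, a tyrosine phosphatase, had 4, 3 and 3 against 73, 81 and 93 counts, the nearest to HAS2 in level. At 0.238 CPM or less in siSCR, it too passed the filter only through its siSURF2 libraries. With 6 libraries in 2 groups, likeness of this kind says mainly that these genes rose by a similar amount.

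Scaling by the ERCC spike-in totals, in place of the gene counts, kept the direction of HAS2, HYAL2, CEMIP and CEMIP2 and ended the calls of HYAL2, CEMIP and CEMIP2. The log2 fold changes were 3.94 ± 0.46, 0.25 ± 0.27, 1.18 ± 0.48 and -0.63 ± 0.27 (SE). With TMM factors they were 3.96 ± 0.30, 0.29 ± 0.06, 1.22 ± 0.38 and -0.57 ± 0.08, so the SE changed more than the values for HYAL2 and CEMIP2. The edgeR adjusted p-values with ERCC library sizes were 0.70, 0.10 and 0.15 for HYAL2, CEMIP and CEMIP2. Over all settings their adjusted p ran from 1.2e-05 to 0.70, from 0.0036 to 0.10 and from 2.6e-12 to 0.15. Spike-ins made up 1.12% to 1.72% of counts in siSCR libraries and 1.27% to 1.72% in siSURF2 libraries.

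**Figure D4:**
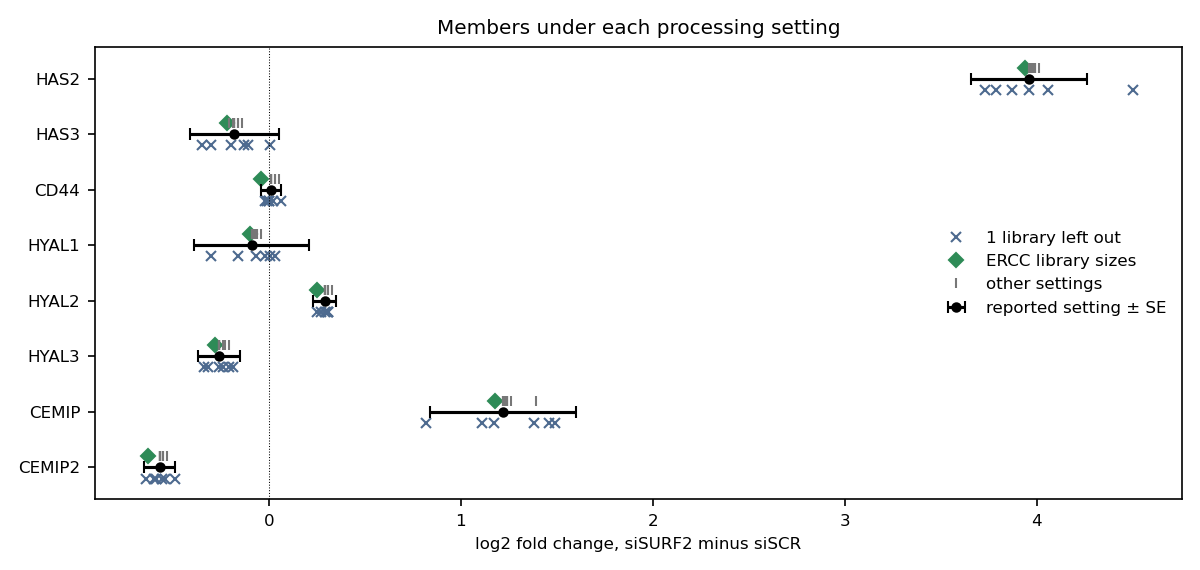
Log2 fold change of siSURF2 minus siSCR (horizontal axis) of the 8 tested genes: black points with SE are the reported values, crosses leave out 1 library, diamonds use ERCC spike-in totals and ticks the other settings. HAS2 ranges from 3.73 to 4.50, CEMIP from 0.82 to 1.49, and HAS3, CD44 and HYAL1 reach both sides of 0.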

How the data were processed

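A table of unnormalized read counts, 6 columns wide, was deposited by the authors. The submitters' processing notes name GRCh38 as the build and list fastp (0.23.1) and STAR (2.5.2b). Read assignment to genes, with its annotation and strand setting, is described in none of the sources used here. PolyA libraries were made from 2 µg of total RNA, per the labels' protocols. Neither library sizes nor tests used the 92 ERCC rows. Names came from a gene table (56948 identifiers) and GENCODE 29 (499 more), and positions and exon lengths from GENCODE 29 on GRCh38.

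Genes were filtered with filterByExpr (minimum count 10, minimum total 15) and tested with the quasi-likelihood F-test of edgeR 4.0.16 (R 4.3.3, TMM factors, robust dispersion, 1 group term), with Benjamini-Hochberg adjusted p-values over the 17561 genes that passed. Each standard error is the log2 fold change without prior count over the root of its F statistic. Intervals of count ratios are exact (Clopper-Pearson on the split of counts) and cover counting error only.

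The members and lists were chosen with earlier results of these data known. Named genes are the members, SURF2, up to 3 per direction and list by adjusted p, genes overlapping or neighbouring members, and the 5 most like HAS2. RDX and members too low to test were named after their values were seen. The program was tested on simulated data. Alternatives were other normalization factors, ERCC library sizes, other filters, DESeq2 1.42.0, voom of limma 3.58.1, a non-robust prior, a replicate block, another prior count, another gene length and leaving out each library.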

Additional observations from a re-analysis of the deposited data

How the results depend on the processing

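Over 17 alternatives, 672 of 730 values of the 43 single genes with a test kept their direction and side of the threshold. The 7 genes given without a test (HAS2, HAS2-AS1 and the 5 most like HAS2) kept their direction in all 118 values, and 2 moved by more than 1 SD. These 7 were chosen by their rise or passed the filter only through siSURF2, so their kept direction adds no support. ERCC library sizes ended the calls of 25 of 36 genes, and the members past the threshold, HAS2 counted by its choice, were then 1 higher and 0 lower (edgeR; 2 and 1 at an unadjusted p under 0.05). On leaving out 1 library, 2 to 3 members were called higher, HAS2 again counted by its choice. Then 1 to 2 members were called lower, the second being HYAL3. Over all genes tested, 4082 to 4292 were called higher and 3878 to 4574 lower in these settings. Of the 50 single genes, signs changed for 3 members, none of them past the threshold: CD44 was at -0.04 with ERCC library sizes and at -0.01, -6e-04, -0.02 and -0.0011 without siSCR replicate 1, siSCR replicate 3, siSURF2 replicate 2 and siSURF2 replicate 3, HAS3 at 0.0035 without siSURF2 replicate 2, and HYAL1 at 0.03 and 0.0043 without siSCR replicates 1 and 2. Over all 6 libraries left out in turn, these 3 genes ran from -0.02 to 0.06, from -0.35 to 0.0035 and from -0.30 to 0.03. With the longest transcript as the length, HAS2 made up 66.5% of the synthase level in siSURF2, and HYAL2 was 2.16 (siSCR) and 3.88 (siSURF2) times CEMIP2, as both values follow the lengths used. SURF2 kept its call throughout (-3.37 to -3.25). With the replicate number as a block, 3 members were called higher, HAS2 counted by its choice, and 1 lower. Of all 17561 genes tested, 4478 were then called higher and 4550 lower, so the count adds no support about the family. Of the single genes only NCAN lost its call with the block (adjusted p = 0.056, within 0.033 to 0.29). Same-numbered libraries did not deviate together (correlations of 0.004, -0.092 and -0.039), so the numbers were not taken as pairs. Depth limits HAS1, TNFAIP6, HYAL1, CEMIP and the control level of HAS2, which rest on fewer than 30 counts in each siSCR library.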
